A study of Mus musculus with 31 samples.

Results

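Skin of cpdm mice at 6 weeks of age was compared with skin of wild type mice of the same age, with 3 arrays against 4. These are 7 of 31 arrays of a series that covers both genotypes at 5 ages from 2 to 10 weeks. The cpdm mice were females homozygous for the spontaneous cpdm (chronic proliferative dermatitis) allele of Sharpin, of the strain C57BL/KaLawRij-Sharpincpdm/Sharpincpdm RijSunJ. The wild type mice were C57BL/6J females. The labels name no treatment, no body site and no stage of the hair cycle. Substrain and genotype cannot be told apart, because the cpdm allele was carried on C57BL/KaLawRij and the controls were C57BL/6J. According to the design text each array holds the skin of a separate mouse. The members of the comparison were all 19938 genes with a probe set named for that gene alone, taken from 35556 probe sets. A gene with several such probe sets was represented by the probe set with the highest mean over the 31 arrays. Values are log2 signals, so a difference of 1 is a 2-fold change, and every difference is cpdm minus wild type, with its standard error (SE). Values of single arrays are given in the order of the replicate numbers, cpdm 1 to 3 and wild type 1 to 4. A gene was called higher or lower at a Benjamini-Hochberg adjusted p below 0.05 in limma's moderated test.

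Sharpin, with Rbck1 (HOIL-1) and the catalytic subunit Rnf31 (HOIP), forms LUBAC, the ligase that builds linear ubiquitin chains on receptor complexes of the TNF, interleukin 1 and Toll-like receptor families. Linear chains recruit the kinases that free NF-kB for transcription, and they restrain death complexes that contain Casp8 and Ripk3. In skin the complex is best known for keeping keratinocytes alive. Mice without Sharpin develop an eosinophil-rich dermatitis with a thickened epidermis. Whole skin is a mixture of epidermis, hair follicles, glands, dermis, fat, vessels, muscle and leukocytes. The epidermal keratin genes Krt14 and Krt10 were strongly measured in every array, Krt14 with log2 signals of 12.70, 12.67 and 12.77 in cpdm and 11.89, 11.74, 12.22 and 12.39 in wild type skin. In such bulk samples fewer cells of a type and less RNA per cell cannot be told apart.

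At 6 weeks 2881 genes (14.4% of those tested) were called, 1669 of them (8.37%) higher and 1212 (6.08%) lower in cpdm skin. A change of at least 2-fold was called for 528 genes (2.65%), with 304 higher and 224 lower. Beyond 4-fold the balance turned to the lower side, with 68 higher and 81 lower genes, and 48 of those 81 were members of hair follicle lists. Beyond 8-fold, 26 genes were higher and 34 lower. The median difference of all genes was -0.002 and the median SE 0.109. Without cpdm array 3 the number of called genes was 1457, with 973 higher and 484 lower, and without cpdm array 2 the lower genes numbered 744. The largest rises were 63.9-fold for the cystatin Stfa3, 63.6-fold for the chitinase-like protein Chil4, 55.4-fold for the wound keratin Krt6b and 54.4-fold for the gasdermin Gsdmc. The 15 largest rises also included the adhesion receptor gene Adgrg7 (13.5-fold), the gut hormone gene Pyy (12.6-fold), Igfl3 (11.2-fold) and the retinol-binding protein gene Rbp2 (10.3-fold). The 15 largest falls were 12-fold to 18.7-fold. Most of them encode keratins, keratin-associated proteins and other products of the growing hair. Crnn (16-fold) and Calhm4 (12-fold) were also among the 15. Like Krt33a, both had their highest cpdm value in array 1 and their lowest wild type value in array 2. Without cpdm array 3 neither Crnn (0.0608) nor Calhm4 (0.0632) was called, and without cpdm array 2 Crnn was not (0.0525; adjusted p values).

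**Figure D1:**
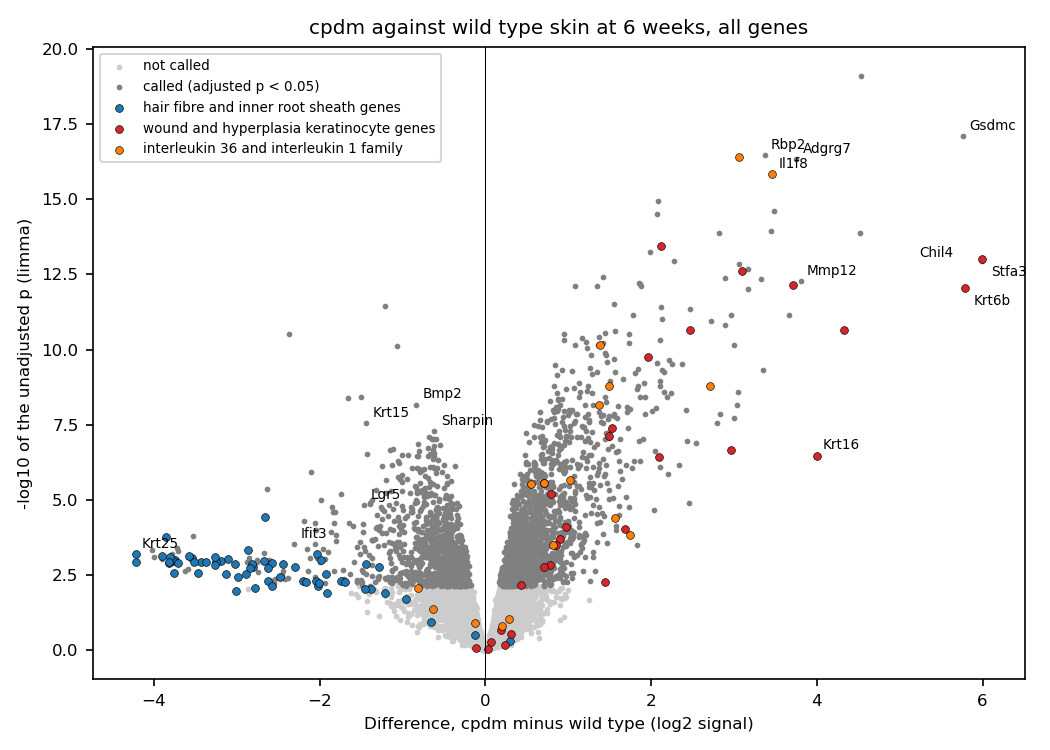
Each point is 1 of 19938 genes, with the difference between cpdm and wild type skin at 6 weeks on the x axis (log2) and the negative log10 of the unadjusted p on the y axis. Most wound keratinocyte genes (red) and interleukin 36 and 1 genes (orange) lie on the right, while hair fibre genes (blue) reach falls of over 4 log2 units at larger p.

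The arrays of each genotype did not vary alike. Correlations over all genes were 0.992 to 0.9959 between cpdm arrays, 0.9727 to 0.9919 between wild type arrays and 0.9568 to 0.9790 between genotypes. The median SD of a gene was 0.101 among cpdm and 0.137 among wild type arrays, and 22 against 125 genes had an SD above 1. Wild type arrays 1 and 2 stood apart from 3 and 4 in several gene lists. The mean level of the interferon response genes was 6.38, 6.52 and 6.39 in cpdm and 6.39, 6.86, 7.45 and 7.37 in wild type skin. That of the melanocyte genes was 6.42, 6.03 and 6.02 in cpdm and 7.22, 6.75, 6.15 and 5.97 in wild type skin, and that of the macrophage genes was 7.76, 7.80 and 7.90 in cpdm and 6.91, 7.18, 7.77 and 7.93 in wild type skin. Thus wild type arrays 1 and 2 were low in interferon and macrophage genes and high in melanocyte genes. Cell cycle genes stood at 7.47, 7.46 and 7.51 in cpdm and 7.04, 7.24, 6.63 and 6.86 in wild type skin, with the lowest wild type value in array 3. In cpdm skin, array 1 had more inner root sheath signal, with 8.15, 6.91 and 6.80 in cpdm and 10.79, 8.91, 11.22 and 9.96 in wild type skin. The part of the wild type split in the differences below was not tested as a cause. Values without wild type arrays 1 and 2 and without 3 and 4, both chosen after seeing the data, are given beside many of the counts. Of the 178 called genes that are named here, 163 were called without wild type arrays 1 and 2 and 157 without 3 and 4. The calls lost without 1 and 2 were those of Bhlhe41, Cd34, Col3a1, Cxcl5, Hlf, Krt14, Krt6a, Mcpt8, Nfkbia, Nr1d1, Ppia, Ripk3, Tnfaip3, Tslp and Ywhaz. Those lost without 3 and 4 were of Calhm4, Cd34, Col3a1, Corin, Cpa3, Crnn, Dsg4, Gpx3, Ifit3, Krt25, Krt33b, Krtap6-3, Lhx2, Mcpt4, Nfkbia, Ppia, Rela, Sox9, Tchh, Tchhl1 and Tslp.

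**Figure D2:**
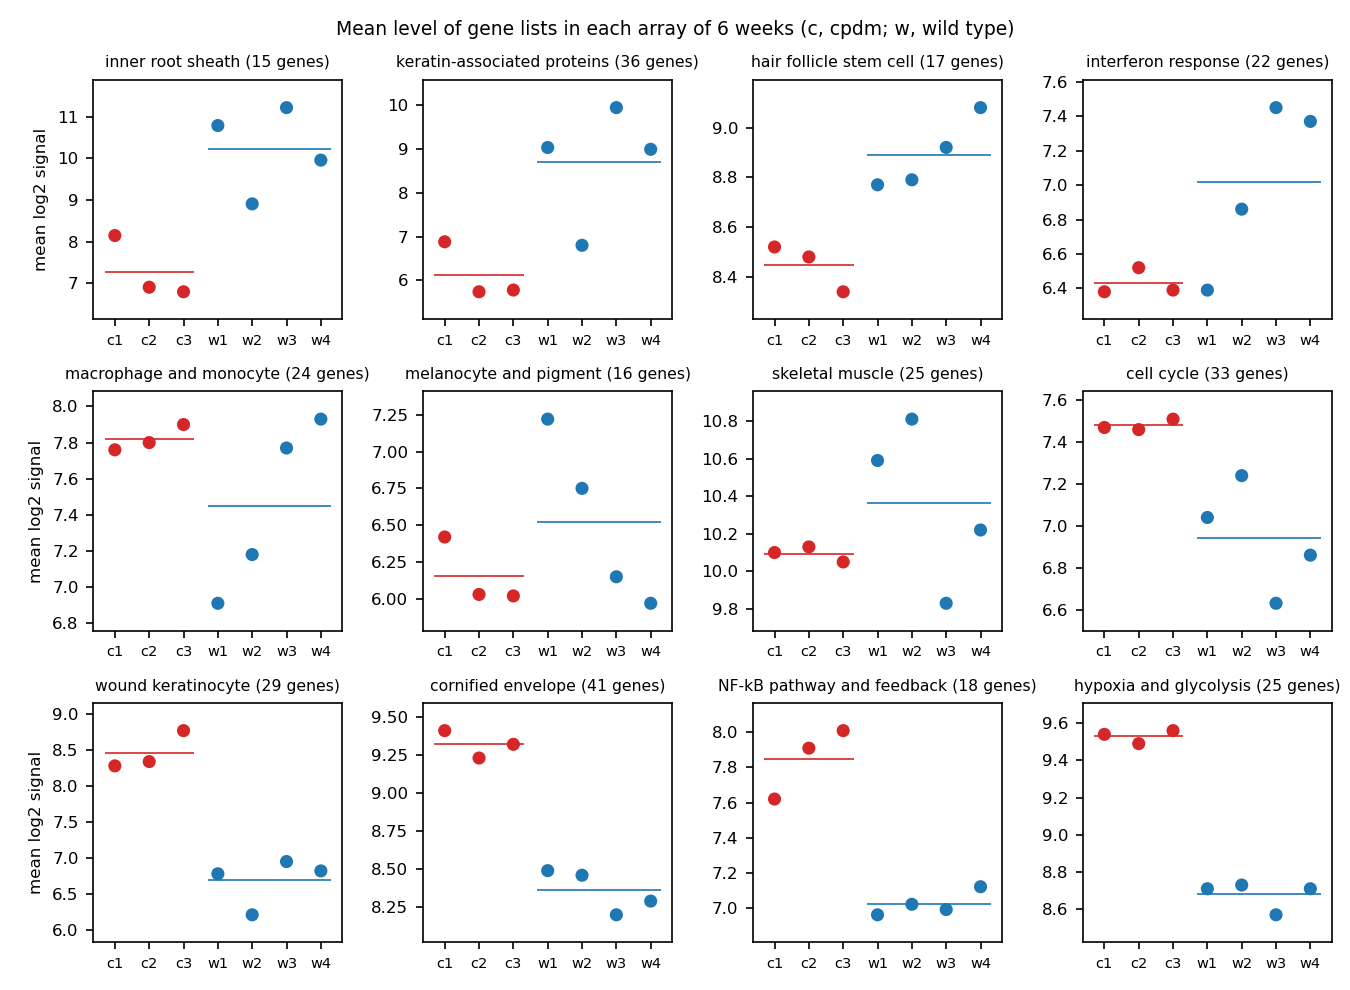
Mean log2 signal of the members of 12 gene lists (y axis) in each of the 7 arrays (x axis; c1 to c3 cpdm, w1 to w4 wild type). NF-kB, wound and cornified genes are higher in every cpdm array than in every wild type array, whereas interferon, melanocyte and macrophage genes split the wild type arrays.

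Sharpin itself was lower in every cpdm array, with log2 signals of 7.55, 7.37 and 7.33 in cpdm and 7.98, 8.11, 8.03 and 8.01 in wild type skin. The difference was -0.62 ± 0.08, adjusted p = 5.55e-06. The partner subunits did not pass the test. Signals of Rnf31 were 7.73, 8.06 and 8.04 in cpdm and 7.72, 7.85, 7.94 and 8.01 in wild type skin (0.06 ± 0.09, adjusted p = 0.723), and Rbck1 differed by 0.01 ± 0.07, adjusted p = 0.93. Among 11 measured genes of linear ubiquitination 3 were called higher and 1, Sharpin, lower, with a median difference of 0.06. Tnip1, which binds linear chains and dampens NF-kB, rose by 0.52 ± 0.09, adjusted p = 0.0002. Tnfaip3 (A20), an NF-kB-induced ubiquitin editor, had signals of 7.93, 8.69 and 8.57 in cpdm and 7.39, 7.45, 7.74 and 7.86 in wild type skin. Its groups did not overlap, but the difference of 0.79 ± 0.22, adjusted p = 0.018 passed no longer without cpdm array 2 (0.114), cpdm array 3 (0.102) or wild type array 1 (0.0529; adjusted p values). The higher genes of this list numbered 1 when any of those arrays was left out. Cyld, a deubiquitinase of the same chains, was not called (0.29 ± 0.13, adjusted p = 0.136).

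Genes of cell death moved to the higher side. Of 18 measured genes 7 were called higher and none lower, with a median difference of 0.27, and 4 were higher without cpdm array 3. Casp8, the initiator caspase downstream of TNF receptors, had signals of 8.76, 8.98 and 8.96 in cpdm and 7.81, 7.92, 8.06 and 8.47 in wild type skin. The groups did not overlap, and the difference was 0.83 ± 0.18, adjusted p = 0.00184. The inflammatory caspase Casp4 rose by 1.25 ± 0.21, adjusted p = 0.000169, the inhibitor of apoptosis Birc3 by 0.93 ± 0.17, adjusted p = 0.000337 and the TNF receptor Tnfrsf1a by 0.42 ± 0.09, adjusted p = 0.0015. Ripk3, a kinase of necroptosis, was called higher by 0.75 ± 0.20, adjusted p = 0.0122, with an adjusted p of 0.0948 without cpdm array 3 and 0.211 without wild type arrays 1 and 2. Tnf did not pass the test (0.46 ± 0.16, adjusted p = 0.0581), and was called only without cpdm array 1 (0.00885) or wild type array 4 (0.014). Nor did the necroptosis effector Mlkl (0.10 ± 0.29, adjusted p = 0.87) or the adaptor Fadd (-0.06 ± 0.07, adjusted p = 0.668) pass.

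In the NF-kB pathway 14 of 18 measured genes were called higher and none lower, with a median difference of 0.59. Components of the alternative arm, in which p100 is processed to p52, were among them. Nfkb2, which encodes p100 and p52, had signals of 8.62, 9.17 and 9.21 in cpdm and 7.65, 7.78, 7.63 and 7.98 in wild type skin and rose by 1.24 ± 0.15, adjusted p = 1.86e-06. Map3k14 (NIK), the kinase that triggers p100 processing, had signals of 7.12, 8.27 and 8.19 in cpdm and 6.35, 6.44, 6.21 and 6.55 in wild type skin and rose by 1.47 ± 0.21, adjusted p = 1.64e-05. Bcl3, a nuclear partner of p52, had signals of 7.15, 7.99 and 8.36 in cpdm and 6.24, 6.20, 6.21 and 6.57 in wild type skin and rose by 1.53 ± 0.21, adjusted p = 1.32e-05. In all 3 genes the groups were separate, and cpdm array 1 was the lowest of its group. Relb, the DNA-binding partner of p52, rose by 0.58 ± 0.11, adjusted p = 0.000736. Of the classical arm, Rel rose by 0.60 ± 0.10, adjusted p = 8.28e-05, while Rela was higher by 0.30 ± 0.08, adjusted p = 0.0123, with an adjusted p of 0.0959 without cpdm array 2 and 0.0878 without cpdm array 3. The feedback inhibitor Nfkbie (1.06 ± 0.19, adjusted p = 0.000384) and Nfkbiz (0.60 ± 0.12, adjusted p = 0.00116), which encodes the nuclear IkB zeta, also rose. Nfkbia, which encodes IkB alpha, was called higher by 0.50 ± 0.17, adjusted p = 0.0462, but not without cpdm array 1, 2 or 3 (0.0828, 0.131 and 0.131) or wild type array 1 or 3 (0.133 and 0.115).

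The promoters of the NF-kB pathway, chemokine, interleukin 36 and 1, and gasdermin genes were searched for a kB-type motif, GGG followed by any 2 bases and TTTCC, in the 250 bases before each transcription start on both strands. Of all genes of the comparison with a promoter in the RefSeq tables, 251 of 15614 (1.61%) held a match. The share was 36 of 1318 (2.73%) among genes called higher, 12 of 938 (1.28%) among genes called lower and 203 of 13358 (1.52%) among the rest. In the NF-kB list 3 of 14 genes with a promoter held a match, among chemokine ligands 5 of 25, among interleukin 36 and 1 genes 1 of 16 and among gasdermins 1 of 2. The windows below are those around the matches of the called members, and of the 4 chemokine genes with a match that were not called, Ccl9, Cxcl1, Cxcl2 and Cxcl3. They are shown because they let the same letters be compared in genes that rose and genes that did not pass the test. They were taken from RefSeq (GRCm38.p6) and are written 5′ to 3′ on the strand of the gene, with capitals for the motif or its reverse complement.
Ccl20, chr1:83116666-83116715, plus strand: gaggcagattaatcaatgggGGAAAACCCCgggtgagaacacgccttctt
Ccl9, chr11:83578642-83578691, minus strand: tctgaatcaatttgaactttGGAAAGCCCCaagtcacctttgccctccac
Cxcl1, chr5:90891136-90891203, plus strand: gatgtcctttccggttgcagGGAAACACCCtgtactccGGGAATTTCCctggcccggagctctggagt
Cxcl2, chr5:90903782-90903850, plus strand: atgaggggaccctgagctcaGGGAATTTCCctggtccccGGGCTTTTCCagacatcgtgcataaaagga
Cxcl3, chr5:90786008-90786057, plus strand: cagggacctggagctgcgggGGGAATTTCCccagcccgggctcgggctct
Gsdma3, chr11:98626132-98626181, plus strand: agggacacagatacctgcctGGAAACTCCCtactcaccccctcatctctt
Il1rn, chr2:24345300-24345349, plus strand: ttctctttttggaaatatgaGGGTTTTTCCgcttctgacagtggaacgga
Nfkb2, chr19:46304706-46304736, plus strand: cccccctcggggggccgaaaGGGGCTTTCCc
Nfkb2, chr19:46305685-46305734, plus strand: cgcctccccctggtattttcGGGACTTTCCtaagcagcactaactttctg
Nfkbia, chr12:55492648-55492696, minus strand: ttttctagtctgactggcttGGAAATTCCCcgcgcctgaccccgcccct
Rel, chr11:23771031-23771080, minus strand: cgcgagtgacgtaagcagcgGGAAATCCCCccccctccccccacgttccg
A match is a description of these letters, not a binding site or a cause. The matches nearest to a start were those of Nfkb2 at 11, of Nfkbia at 29 and of Ccl9 at 35 bases upstream. Il1rn rose and holds its match 51 bases upstream. Of the 5 chemokine genes with a match only Ccl20 was called. The Cxcl1, Cxcl2 and Cxcl3 promoters hold matches at 71 to 97 bases, and neither their transcripts nor that of Ccl9 passed the test (Cxcl1 0.10 ± 0.08, adjusted p = 0.433, Cxcl2 0.31 ± 0.27, adjusted p = 0.521, Cxcl3 0.22 ± 0.12, adjusted p = 0.288, Ccl9 0.27 ± 0.44, adjusted p = 0.772).

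Interleukin 36 and interleukin 1 family genes rose broadly, with 12 of 17 measured members called higher, none lower and a median difference of 1.02. Interleukin 36 cytokines are alarm signals of keratinocytes. The array names Il1f6 and Il1f8 are the older symbols of Il36a and Il36b. Signals of Il1f6 were 7.99, 8.17 and 8.05 in cpdm and 4.91, 4.77, 4.92 and 5.44 in wild type skin, a rise of 3.06 ± 0.15, adjusted p = 1.79e-13. Signals of Il1f8 were 8.26, 8.07 and 8.47 in cpdm and 4.74, 5.09, 4.67 and 4.74 in wild type skin, a rise of 3.46 ± 0.18, adjusted p = 4.74e-13. For Il1f9 (Il36g) they were 9.96, 9.89 and 10.10 in cpdm and 7.41, 7.94, 6.58 and 7.18 in wild type skin (2.71 ± 0.29, adjusted p = 3.45e-07). No cpdm array came within 1 log2 unit of any wild type array in these 3 genes. The antagonist Il1f5 (Il36rn) rose by 1.49 ± 0.16, adjusted p = 3.41e-07 and the receptor Il1rl2 by 0.55 ± 0.09, adjusted p = 0.000144, so agonists, antagonist and receptor were all higher. Il1b, made mainly by myeloid cells, had signals of 5.39, 6.67 and 6.96 in cpdm and 4.53, 4.59, 4.65 and 4.60 in wild type skin and rose by 1.75 ± 0.39, adjusted p = 0.0029, with the lowest cpdm value in array 1. Il1a rose by 1.38 ± 0.13, adjusted p = 2.4e-08, the receptor antagonist Il1rn by 0.71 ± 0.12, adjusted p = 0.000135, Il18 by 1.02 ± 0.17, adjusted p = 0.000108 and its receptor chain Il18rap by 1.37 ± 0.16, adjusted p = 1.15e-06. The alarmin Il33 rose by 1.57 ± 0.32, adjusted p = 0.0011. The decoy receptor Il1r2 did not pass the test (-0.81 ± 0.28, adjusted p = 0.0553), but was called lower without cpdm array 1 (0.0123) or wild type array 3 (0.0408), and the inflammasome gene Nlrp3 was not called (0.29 ± 0.16, adjusted p = 0.284).

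Il17a, Il17f, Il4, Il5 and Il13, the signature cytokine genes of T helper cells, did not pass the test, whereas several cytokine receptors and induced genes did. Il17a signals were 5.40, 5.42 and 5.30 in cpdm and 5.44, 5.29, 5.46 and 5.39 in wild type skin (-0.02 ± 0.09, adjusted p = 0.913), with overlapping groups. Il17f (0.07 ± 0.08, adjusted p = 0.681) and the epithelial Il17c (0.07 ± 0.12, adjusted p = 0.8) were not called either. In the interleukin 17 and 23 list 5 of 16 genes were higher, none lower, with a median of 0.21, and 2 were higher without cpdm array 3. Il23a, a subunit of interleukin 23, rose by 0.80 ± 0.18, adjusted p = 0.00244 and the receptor chain Il17rc by 0.79 ± 0.12, adjusted p = 7.37e-05. Of 18 type 2 genes 9 were higher and none lower (median 0.29). Il4 (0.20 ± 0.12, adjusted p = 0.341), Il13 (0.15 ± 0.09, adjusted p = 0.31) and Il5 (0.22 ± 0.10, adjusted p = 0.183) did not pass the test. Their mean wild type signals were 4.857 for Il4, 5.787 for Il13 and 3.405 for Il5. At such levels the lack of a call does not show unchanged expression. Chil4, a chitinase-like protein induced by type 2 cytokines, had signals of 9.46, 9.82 and 11.06 in cpdm and 4.33, 3.87, 3.93 and 4.36 in wild type skin and rose by 5.99 ± 0.41, adjusted p = 1.36e-10. Retnla (-0.74 ± 0.37, adjusted p = 0.208) and Arg1 (-0.19 ± 0.17, adjusted p = 0.538) of the same list were not called. The decoy receptor Il13ra2 rose by 2.11 ± 0.23, adjusted p = 3.41e-07, Il5ra by 0.77 ± 0.11, adjusted p = 2.81e-05, the oncostatin M receptor Osmr by 0.95 ± 0.14, adjusted p = 4.13e-05 and Stat6 by 0.35 ± 0.09, adjusted p = 0.00736. Tslp, an epithelial cytokine that primes type 2 responses, was called higher by 0.98 ± 0.30, adjusted p = 0.0295, but adjusted p was 0.185 and 0.0558 without cpdm array 1 and 3, and 0.0712 and 0.0821 without wild type array 1 and 4.

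Of 34 chemokine ligands 12 were higher and none lower, with a median difference of 0.49. Several of the risen ligands attract T helper cells, dendritic cells or monocytes. Ccl17, a ligand of Ccr4, rose by 2.96 ± 0.24, adjusted p = 3.65e-09, and Ccl22, which shares that receptor, by 1.43 ± 0.23, adjusted p = 8.69e-05. Cxcl16 had signals of 8.81, 9.19 and 9.20 in cpdm and 7.16, 7.28, 7.23 and 7.47 in wild type skin and rose by 1.78 ± 0.15, adjusted p = 3.74e-09. Ccl20, the ligand of Ccr6, rose by 0.91 ± 0.14, adjusted p = 4.04e-05. Ccl8 signals were 9.87, 10.16 and 10.08 in cpdm and 7.05, 7.59, 8.55 and 8.83 in wild type skin (2.03 ± 0.39, adjusted p = 0.000653), so the wild type arrays spread over more than 1 log2 unit and still lay below the cpdm arrays. Neutrophil-attracting Cxcl5 was called higher by 1.302 ± 0.33, adjusted p = 0.00793, with an adjusted p of 0.132 without cpdm array 3, and the interferon-induced Cxcl10 (0.59 ± 0.28, adjusted p = 0.189) and the eosinophil attractant Ccl11 (0.65 ± 0.23, adjusted p = 0.0563) were not called. Ccl11 was called higher without cpdm array 1 (0.0495) or wild type array 2 (0.0405). Ccl24, also an eosinophil attractant, had signals of 6.85, 7.86 and 7.98 in cpdm and 6.33, 5.98, 6.05 and 6.28 in wild type skin. It rose by 1.40 ± 0.27, adjusted p = 0.00079. Of 21 receptors 6 were higher and none lower. Cxcr2, the receptor for the neutrophil-attracting ligands, had signals of 5.89, 6.46 and 7.24 in cpdm and 3.55, 3.36, 3.55 and 3.43 in wild type skin, and its difference of 3.06 ± 0.21, adjusted p = 1.52e-10 was the largest in that list. Ccr3, the eosinophil receptor, rose by 1.203 ± 0.27, adjusted p = 0.00267, Ccr8 by 0.89 ± 0.17, adjusted p = 0.00078 and Ccr7 by 0.81 ± 0.13, adjusted p = 0.000127. In the TNF superfamily 8 of 26 genes were higher and none lower, with a median of 0.08, and 5 were higher without wild type arrays 1 and 2. The rises included the T cell costimulators Tnfrsf4 (OX40; 0.79 ± 0.11, adjusted p = 2.03e-05), Tnfrsf18 (GITR; 0.95 ± 0.14, adjusted p = 3.64e-05) and Tnfrsf9 (4-1BB; 0.53 ± 0.10, adjusted p = 0.000748).

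**Figure D3:**
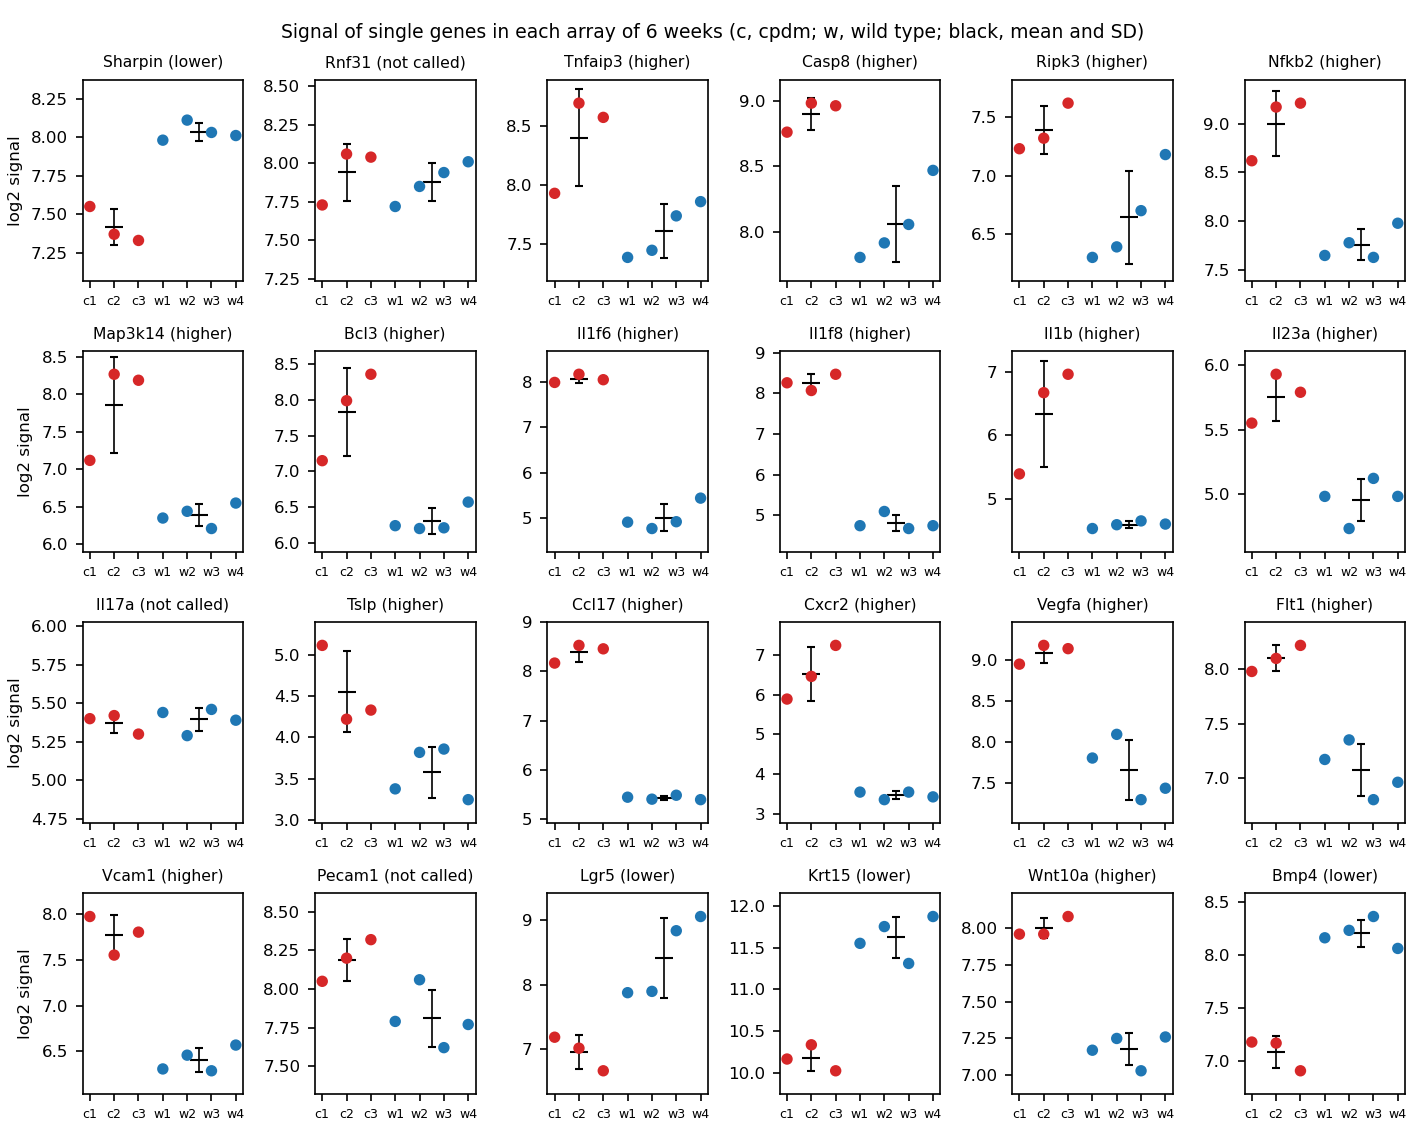
Log2 signals of 24 genes of the LUBAC, NF-kB, cytokine, vessel and hair follicle groups, 1 panel per gene, with each of the 3 cpdm and 4 wild type arrays as a point and the mean and SD as a bar. The points of Il1f6, Il1f8, Nfkb2, Vegfa, Krt15 and Bmp4 do not overlap between genotypes, and those of Rnf31 and Il17a do.

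Interferon response genes went the other way, with 5 of 22 measured genes lower, none higher and a median of -0.61. Ifit3 had signals of 5.36, 5.64 and 5.71 in cpdm and 6.71, 7.80, 8.71 and 8.30 in wild type skin and fell by 2.31 on the log2 scale (SE 0.55, adjusted p = 0.00508). Wild type arrays 3 and 4 held the highest values, and without both the fall did not pass the test (0.096). Mx1, an antiviral GTPase, showed the same split, with 5.20, 5.09 and 5.03 in cpdm and 4.73, 5.01, 6.76 and 6.51 in wild type skin (-0.65 ± 0.44, adjusted p = 0.394). For the list, 1 gene was lower without cpdm array 1 or 3 or wild type array 3 or 4, and 3 genes without cpdm array 2. The lower genes numbered 11 without wild type arrays 1 and 2, and 0 without 3 and 4. Neither Ifnb1 (0.13 ± 0.08, adjusted p = 0.298) nor Ifng (-0.03 ± 0.12, adjusted p = 0.915) was called. Of 12 antigen presentation genes 1 was higher (8.33%, near the 8.37% of all genes), with a median of 0.39. None was higher without cpdm array 2 or 3 or wild type array 1 or 2, 2 were without cpdm array 1 and 3 without wild type array 4. H2-Aa (0.41 ± 0.22, adjusted p = 0.252) and B2m (0.23 ± 0.12, adjusted p = 0.231) were not called.

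Genes that keratinocytes express in wounds and hyperplastic epidermis rose together. Of 29 measured genes 23 were higher and none lower, with a median difference of 1.45. The hyperproliferation keratin Krt16 rose by 4.00 ± 0.58, adjusted p = 2.47e-05. Its signals were 11.81, 11.94 and 12.41 in cpdm and 7.29, 5.70, 8.82 and 10.42 in wild type skin, so the wild type arrays were widely spread. Krt6a, which the companion layer of follicles also expresses, rose by 1.68 ± 0.36, adjusted p = 0.00211, with an adjusted p of 0.0524 without wild type arrays 1 and 2. Sprr1b, a cross-linked precursor of the cell envelope, rose by 4.32 ± 0.38, adjusted p = 9.75e-09. The serine protease Klk6 had signals of 11.14, 11.06 and 11.47 in cpdm and 8.03, 7.32, 8.63 and 8.55 in wild type skin and rose by 3.09 ± 0.22, adjusted p = 2.33e-10, and Klk8 rose by 2.12 ± 0.14, adjusted p = 5.64e-11. Members that did not pass the test included Sprr1a (0.31 ± 0.29, adjusted p = 0.559) and the connexin genes Gjb2 (-0.12 ± 0.66, adjusted p = 0.94) and Gjb6 (0.24 ± 0.55, adjusted p = 0.841). Several of these genes, and the Lce, Gsdmc, Chil4 and Krtap genes, belong to families with near-identical copies that can share probe signal, so the value of a single member is uncertain.

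Of 41 cornified envelope and granular layer genes 25 were higher and 2 lower, with a median of 0.90. The 2 lower genes, Tchh (-3.54 ± 0.93, adjusted p = 0.0108) and Tchhl1 (-2.86 ± 0.75, adjusted p = 0.0109), encode trichohyalin and a relative, and trichohyalin is a protein of the inner root sheath. Neither was called without cpdm array 3 (0.0764 and 0.0609), nor Tchh without cpdm array 2 (0.0574). Casp14, the protease of terminal differentiation, rose by 2.07 ± 0.12, adjusted p = 6.75e-12, repetin (Rptn) by 2.81 ± 0.17, adjusted p = 2.28e-11 and involucrin (Ivl) by 1.60 ± 0.27, adjusted p = 0.000162. Krt1 signals were 12.58, 12.71 and 12.81 in cpdm and 11.35, 11.55, 10.44 and 11.30 in wild type skin (1.54 ± 0.28, adjusted p = 0.000331). Its partner Krt10 differed by 0.12 ± 0.22, adjusted p = 0.799 and loricrin (Lor) by 0.48 ± 0.27, adjusted p = 0.287, so these abundant suprabasal genes did not pass the test while Krt1 did. Of 24 kallikreins and protease inhibitors 12 were higher and none lower (median 0.47). They included the desquamation proteases Klk5 (0.98 ± 0.14, adjusted p = 3.37e-05) and Klk7 (0.77 ± 0.14, adjusted p = 0.000445), as well as Klk13 (3.44 ± 0.21, adjusted p = 2.25e-11) and Klk9 (3.17 ± 0.22, adjusted p = 2.24e-10). Spink5, the inhibitor of Klk5 and Klk7, was not called (0.26 ± 0.13, adjusted p = 0.219).

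Enzymes and transporters of the epidermal lipid barrier followed, with 17 of 25 higher, none lower and a median of 0.70. The number was 11 without cpdm array 2 or 3. Abca12, which loads glucosylceramide into lamellar bodies, had signals of 10.45, 10.39 and 10.43 in cpdm and 9.57, 9.70, 9.27 and 9.24 in wild type skin and rose by 0.98 ± 0.13, adjusted p = 7.93e-06. The ceramide synthase Cers3 rose by 0.73 ± 0.18, adjusted p = 0.00618, the lipoxygenase Alox12b by 1.44 ± 0.28, adjusted p = 0.000959 and Sdr9c7 by 1.60 ± 0.19, adjusted p = 1.2e-06. Of 20 sterol and fatty acid synthesis genes 13 were higher and 2 lower (median 0.54), with 7 higher without wild type arrays 3 and 4. No lower gene was called without cpdm array 3 and 1 without cpdm array 1 or 2 or wild type array 1 or 2. Sqle, which makes squalene epoxide, rose by 1.26 ± 0.13, adjusted p = 1.12e-07 and Cyp51 by 1.40 ± 0.17, adjusted p = 2.08e-06. The fatty acid synthase Fasn (0.47 ± 0.28, adjusted p = 0.319) and its regulator Srebf1 (-0.04 ± 0.10, adjusted p = 0.857) were not called. The higher genes numbered 12 in the barrier list and 7 in the sterol list without wild type arrays 3 and 4.

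Gasdermin genes encode pore-forming proteins, some of which are active in epidermis. Of 8 measured members 4 were higher and none lower (median 0.38). Gsdmc signals were 10.19, 11.06 and 11.29 in cpdm and 5.42, 5.03, 4.72 and 5.15 in wild type skin and its rise was 5.77 ± 0.26, adjusted p = 8.04e-14. Gsdma3 had signals of 8.36, 8.76 and 8.48 in cpdm and 6.96, 6.26, 7.85 and 7.68 in wild type skin and rose by 1.35 ± 0.26, adjusted p = 0.000831. Gsdmd, the target of the inflammatory caspases, was not called (0.38 ± 0.21, adjusted p = 0.266), and neither were Gsdma (0.28 ± 0.33, adjusted p = 0.657) and, with the brighter of its probe sets, Gsdme (0.03 ± 0.10, adjusted p = 0.912). The dimmer Gsdme probe set was higher by 0.36, adjusted p = 0.0161 in the limma fit over all probe sets. Of 24 antimicrobial and alarmin genes 14 were higher and 3 lower, with a median of 0.48. S100a9, a subunit of calprotectin, had signals of 7.50, 8.24 and 8.96 in cpdm and 4.99, 5.36, 5.34 and 5.23 in wild type skin and rose by 3.003 ± 0.28, adjusted p = 2.4e-08, and S100a8 rose by 2.79 ± 0.35, adjusted p = 3.2e-06. The beta-defensins Defb14 (0.95 ± 0.18, adjusted p = 0.000493) and Defb6 (1.195 ± 0.15, adjusted p = 4.21e-06) rose. Defb1 was called higher (0.459 ± 0.155, adjusted p = 0.048) with overlapping arrays. Defb3 (0.407 ± 0.176, adjusted p = 0.136) and Defb4 (0.133 ± 0.238, adjusted p = 0.792) were not called. The peptidoglycan recognition protein Pglyrp3 rose by 2.14 ± 0.18, adjusted p = 4.79e-09. The lysozyme gene Lyz1 went against the list, with 7.77, 7.75 and 7.18 in cpdm and 9.40, 9.65, 10.53 and 11.23 in wild type skin and a difference of -2.64 ± 0.45, adjusted p = 0.000186. Of the 3 lower genes 1 was left without cpdm array 3.

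**Figure D4:**
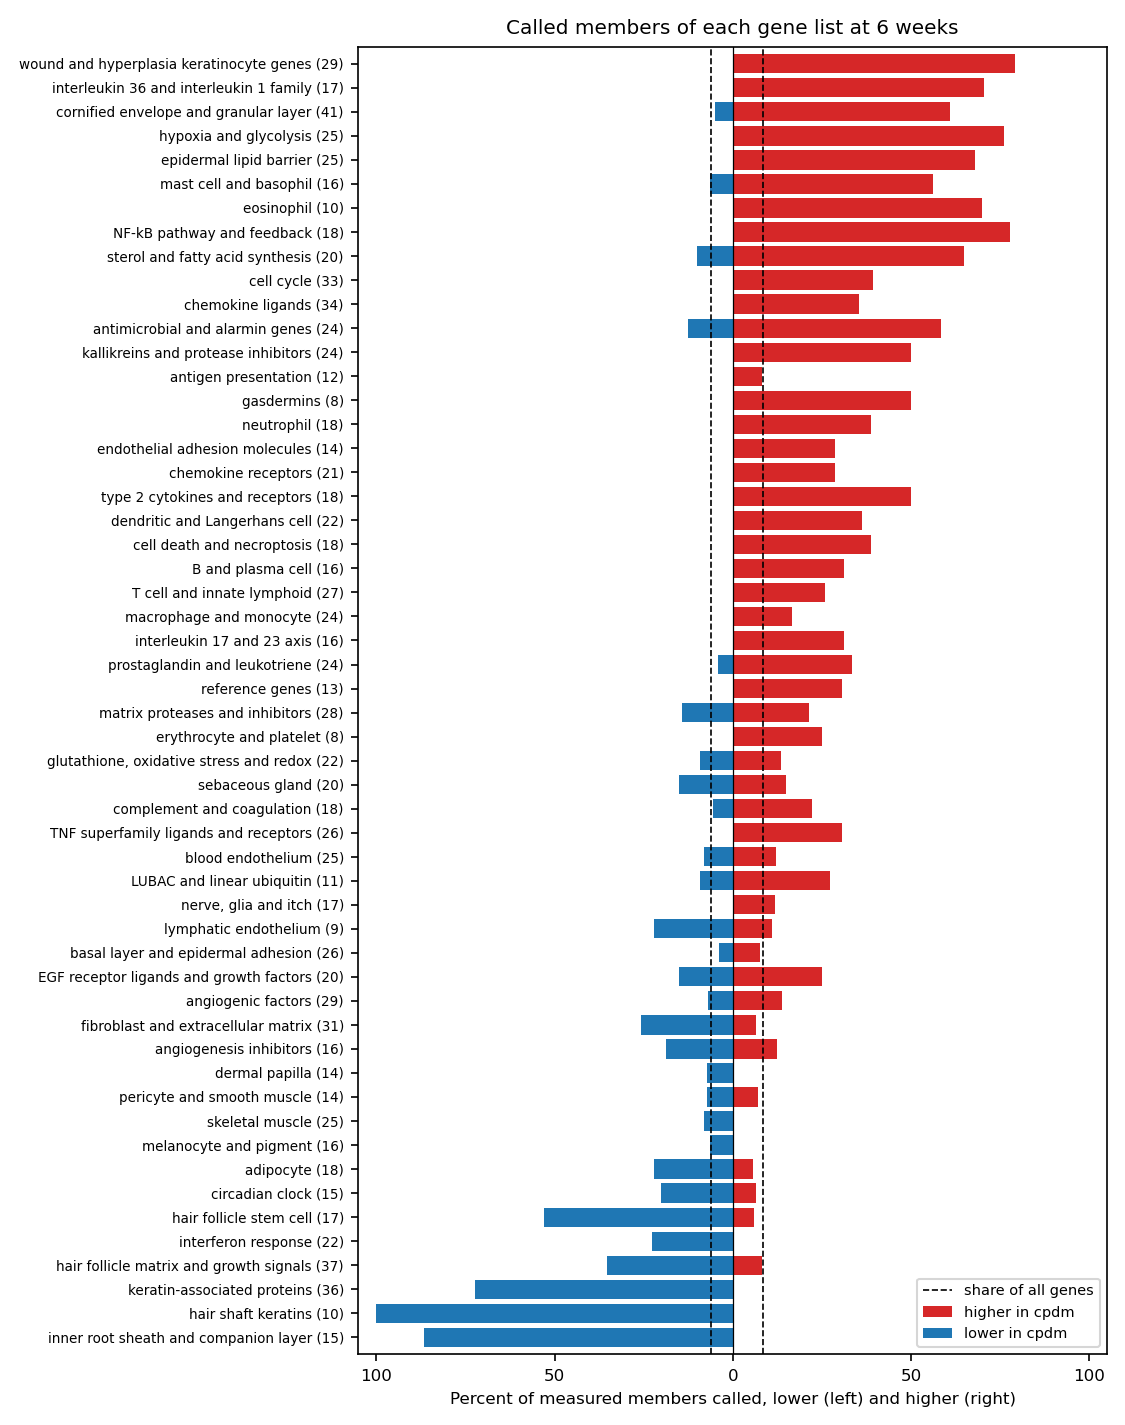
For each of 54 gene lists, sorted by median difference, bars give the percentage of measured members called higher (right) and lower (left) in cpdm skin at 6 weeks. The other of the 55 lists, kept as a check of substrain and sex, is not drawn. Of its 6 measured genes 1 was lower and none higher, and none was lower without cpdm array 3. Dashed lines mark the 8.37% and 6.08% of all genes, and hypoxia, wound and NF-kB lists lie far above the first line while hair fibre lists lie far above the second.

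Growth factor genes of the epidermis moved in both directions. Of 20 growth factor genes 5 were higher and 3 lower, and 1 was lower without cpdm array 3. Epgn, a ligand of the EGF receptor, had signals of 8.78, 8.47 and 8.72 in cpdm and 6.27, 5.97, 5.87 and 6.36 in wild type skin and rose by 2.54 ± 0.35, adjusted p = 1.13e-05. Ereg (0.90 ± 0.18, adjusted p = 0.00115) and Hbegf (1.07 ± 0.23, adjusted p = 0.00242), which bind the same receptor, also rose. The receptor gene Egfr fell, with signals of 9.60, 9.64 and 9.59 in cpdm and 10.06, 10.01, 10.38 and 10.22 in wild type skin and a difference of -0.56 ± 0.10, adjusted p = 0.000384. Among 26 basal layer genes 2 were higher (7.69%) and 1 lower (3.85%), against 8.37% and 6.08% of all genes, with a median of -0.00. The counts were 1 higher without cpdm array 3 and 2 lower without wild type array 2. The basal keratin Krt14 rose by 0.65 ± 0.14, adjusted p = 0.00147, whereas Krt5 (0.18 ± 0.07, adjusted p = 0.0878) and the basal transcription factor Trp63 (0.17 ± 0.10, adjusted p = 0.284) were not called. Without wild type arrays 1 and 2 the adjusted p of Krt14 was 0.0522, and without wild type array 4 that of Krt5 was 0.0288. Of 33 cell cycle genes 13 were higher and none lower (median 0.51), and the arrays of 24 did not overlap (22.4% of all genes). The 13 higher genes depended on single arrays and numbered 1 without cpdm array 1, 2 without cpdm array 2, cpdm array 3 or wild type array 3, and 3 without wild type array 4. They numbered 17 without wild type arrays 1 and 2 and 0 without 3 and 4. Mki67 signals were 9.31, 9.16 and 9.21 in cpdm and 8.77, 8.98, 7.80 and 7.95 in wild type skin (0.85 ± 0.31, adjusted p = 0.0692), with narrow cpdm values and a wild type spread of over 1 log2 unit, and without wild type array 2 it was called (0.0271).

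Genes of the hair fibre had the lowest medians of all 55 lists. They were taken as 61 measured members of 3 lists, hair shaft keratins, inner root sheath and companion layer, and keratin-associated proteins. Of these 49 were lower and none higher in cpdm skin, with a median of -2.80. In the shaft keratin list all 10 members were lower (median -2.65), in the root sheath list 13 of 15 (median -3.47) and among keratin-associated proteins 26 of 36 (median -2.62). Krt25, a keratin of the inner root sheath, had signals of 9.10, 7.11 and 6.76 in cpdm and 12.39, 10.90, 12.53 and 11.69 in wild type skin (-4.22 ± 1.08, adjusted p = 0.00866). Krt75, of the companion layer, had signals of 8.40, 7.72 and 7.78 in cpdm and 10.95, 9.33, 11.50 and 10.75 in wild type skin (-2.67 ± 0.53, adjusted p = 0.00101). Krtap6-3, a high glycine-tyrosine protein of the shaft, had signals of 4.78, 3.98 and 4.14 in cpdm and 7.28, 4.95, 10.17 and 10.21 in wild type skin (-3.85 ± 0.87, adjusted p = 0.00326). Wild type array 2 was the lowest wild type array in each of these 3 genes, and cpdm array 1 was the highest cpdm array. Krt33b fell by 2.86 on the log2 scale (SE 0.71, adjusted p = 0.0068), and the desmosomal cadherin Dsg4 of the hair by 3.72 (SE 0.91, adjusted p = 0.00626). Krt25 was not called without cpdm array 3 (0.0641). Without wild type arrays 3 and 4 Krt75 was called (0.0263), while Krt25 (0.0573), Krtap6-3 (0.131), Krt33b (0.0837) and Dsg4 (0.0803) were not.

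The number of called hair fibre genes rested on single arrays, although their fold differences were large. Of the 61 genes 48 were lower without cpdm array 1, 58 without wild type array 2, 35 without wild type array 1 and 34 without wild type array 4. Only 8 were lower without cpdm array 2, 5 without cpdm array 3 and 20 without wild type array 3. Without wild type arrays 1 and 2 there were 49 (median -3.44), and without 3 and 4 there was 1 (median -1.86). At 4 weeks the same genes had a median difference of -0.14 with none called, and at 8 weeks of -0.43 with 1 lower. By list, in the order of shaft, root sheath and associated proteins, 2, 3 and 3 genes were lower without cpdm array 2, 2, 2 and 1 without cpdm array 3, and 5, 8 and 7 without wild type array 3. The associated proteins numbered 15 without wild type array 4. The test of 6 weeks against 4 or 8 weeks called none of the 61. For Krt25 the differences at 4 and 8 weeks were -1.17 and 1.02, and the test of 6 against 4 weeks gave an adjusted p of 0.416. The stage of the hair cycle of the mice was not recorded in the labels, and its part in these falls was not tested.

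Signals that govern the follicle changed as well. Of 37 genes of the hair matrix and its growth signals 3 were higher (8.11%) and 13 lower (35.1%), with a median of -0.61. Of all genes 8.37% were higher and 6.08% lower, so the higher share lay near that of all genes. The lower genes numbered 8 without cpdm array 2 and 7 without cpdm array 3. There were 6 lower without wild type arrays 3 and 4. The Wnt ligand Wnt10a had signals of 7.96, 7.96 and 8.08 in cpdm and 7.17, 7.25, 7.03 and 7.26 in wild type skin and rose by 0.82 ± 0.09, adjusted p = 3.41e-07, and Wnt3 rose by 1.04 ± 0.15, adjusted p = 3.35e-05. Bone morphogenetic proteins fell. Bmp4 had signals of 7.18, 7.17 and 6.91 in cpdm and 8.16, 8.23, 8.36 and 8.06 in wild type skin (-1.12 ± 0.16, adjusted p = 1.65e-05), Bmp2 had signals of 6.35, 6.54 and 6.38 in cpdm and 7.06, 7.15, 7.37 and 7.46 in wild type skin (-0.84 ± 0.10, adjusted p = 1.12e-06), and Bmp6 differed by -0.51 ± 0.10, adjusted p = 0.000589. In Wnt10a, Bmp2 and Bmp4 every cpdm array lay on 1 side of every wild type array. The transcription factors Sox9 (-1.09 ± 0.26, adjusted p = 0.00557) and Lhx2 (-1.09 ± 0.27, adjusted p = 0.00666) fell, although without wild type arrays 3 and 4 their adjusted p was 0.161 and 0.0883. Shh (-0.28 ± 0.20, adjusted p = 0.435), Lef1 (-1.21 ± 0.46, adjusted p = 0.0847) and Foxn1 (-0.74 ± 0.36, adjusted p = 0.185), which mark the growing matrix, did not pass the test, and Lef1 was called lower without wild type array 4 (0.0383).

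Of 17 hair follicle stem cell genes 9 were lower (52.9%) and 1 higher (5.88%), against 6.08% and 8.37% of all genes, with a median of -0.57. Without wild type arrays 3 and 4 there were 4 lower. The higher genes numbered 2 without cpdm array 2 or wild type array 2. The bulge keratin Krt15 had signals of 10.17, 10.34 and 10.03 in cpdm and 11.55, 11.75, 11.31 and 11.87 in wild type skin and a difference of -1.44 ± 0.18, adjusted p = 3.24e-06. Lgr5, a receptor of the lower bulge and germ, had signals of 7.19, 7.02 and 6.67 in cpdm and 7.88, 7.90, 8.84 and 9.06 in wild type skin (-1.46 ± 0.27, adjusted p = 0.000509). Its wild type values formed a lower pair, arrays 1 and 2, and a higher pair, arrays 3 and 4, and all lay above the cpdm values. Lrig1, of the upper follicle, fell by 0.79 (SE 0.13, adjusted p = 0.000134) and Tbx1 by 1.26 (SE 0.24, adjusted p = 0.000556). The surface marker Cd34 was called lower (-0.66 ± 0.21, adjusted p = 0.0313), with an adjusted p of 0.0933 and 0.137 without cpdm array 2 and 3, and of 0.0911 and 0.0712 without wild type array 2 and 4. Of 14 dermal papilla genes 1 (7.14%, against 6.08% of all genes), the protease Corin, was lower (-0.79 ± 0.21, adjusted p = 0.0114). Its adjusted p was 0.129 without wild type arrays 3 and 4, and 2 genes of the list were lower without wild type array 3. Of 16 melanocyte genes 1 (6.25%, near the share of all genes), the master regulator Mitf, was lower (-0.89 ± 0.17, adjusted p = 0.000758). The dimmer probe set of Mitf was not called (adjusted p = 0.0778 in the limma fit over all probe sets). The pigment enzyme Tyrp1 had signals of 7.97, 6.76 and 6.89 in cpdm and 9.22, 8.54, 6.12 and 6.06 in wild type skin and was not called (-0.28 ± 0.68, adjusted p = 0.852), with wild type arrays 1 and 2 above and 3 and 4 below the cpdm arrays.

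Among vessel genes some adhesion molecules and growth factors rose. Of 14 endothelial adhesion genes 4 were higher, none lower, with a median of 0.36. Vcam1, which binds leukocyte integrins, had signals of 7.97, 7.55 and 7.80 in cpdm and 6.31, 6.46, 6.29 and 6.57 in wild type skin and rose by 1.37 ± 0.20, adjusted p = 4.01e-05. Icam1 rose by 0.71 ± 0.15, adjusted p = 0.00139, and the integrin chains Itgal (0.89 ± 0.16, adjusted p = 0.000397) and Itgb7 (0.60 ± 0.14, adjusted p = 0.00508), found on leukocytes, rose too. Of 25 blood endothelium genes 3 were higher (12%) and 2 lower (8%), against 8.37% and 6.08% of all genes, with a median of 0.07. None was lower without cpdm array 2, cpdm array 3 or wild type array 2, and 1 without wild type array 1, 3 or 4. Pecam1 (0.38 ± 0.14, adjusted p = 0.0838), Cdh5 (0.08 ± 0.14, adjusted p = 0.795) and Kdr (-0.49 ± 0.20, adjusted p = 0.115) were not called, while Pecam1 was called without wild type array 2 (0.0405). Flt1, a VEGF receptor, had signals of 7.98, 8.10 and 8.22 in cpdm and 7.17, 7.35, 6.80 and 6.96 in wild type skin and rose by 1.03 ± 0.17, adjusted p = 0.000111. Of 29 angiogenic factors 4 were higher (13.8%) and 2 lower (6.9%), against 8.37% and 6.08% of all genes, with a median of -0.06. No lower gene was called without cpdm array 2, cpdm array 3, wild type array 3 or wild type array 4. Vegfa had signals of 8.95, 9.18 and 9.14 in cpdm and 7.80, 8.09, 7.29 and 7.43 in wild type skin and rose by 1.44 ± 0.19, adjusted p = 8.9e-06, Pgf rose by 0.79 ± 0.14, adjusted p = 0.00024, Angpt2 by 0.52 ± 0.12, adjusted p = 0.00341 and Hgf by 1.25 ± 0.21, adjusted p = 0.000137. Lyve1 (-0.79 ± 0.51, adjusted p = 0.359) and Prox1 (0.25 ± 0.18, adjusted p = 0.425) of lymphatic vessels were not called.

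Most genes of hypoxia and glycolysis rose, with 19 of 25 higher, none lower and a median of 0.78. Pfkl, a subunit of phosphofructokinase, had signals of 9.18, 9.04 and 9.17 in cpdm and 7.72, 7.88, 7.50 and 7.73 in wild type skin and rose by 1.42 ± 0.10, adjusted p = 3.63e-10. The glucose transporter Slc2a1 rose by 1.99 ± 0.13, adjusted p = 7.86e-11, the lactate transporter Slc16a1 by 1.55 ± 0.19, adjusted p = 1.91e-06, and carbonic anhydrase 9 (Car9) by 1.11 ± 0.15, adjusted p = 7.93e-06. The oxygen sensors Egln3 (2.89 ± 0.21, adjusted p = 3.63e-10) and Egln1 (1.07 ± 0.12, adjusted p = 3.82e-07) and Hif1a itself (0.87 ± 0.11, adjusted p = 6.94e-06) rose as well. Aldoa (-0.05 ± 0.10, adjusted p = 0.813) was not called. Nor was Hk1 with the brighter of its probe sets (0.01 ± 0.07, adjusted p = 0.955), whereas the dimmer one was higher by 0.73, adjusted p = 3.07e-05 in the limma fit over all probe sets.

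Leukocyte lists rose in part. Of 10 eosinophil genes 7 were higher, none lower, with a median of 0.65, and they included Prg2 (0.90 ± 0.12, adjusted p = 1.35e-05), Siglecf (0.72 ± 0.12, adjusted p = 8.7e-05) and Ear6 (0.57 ± 0.10, adjusted p = 0.000287). The peroxidase gene Epx was not called (0.09 ± 0.12, adjusted p = 0.738). Of 16 mast cell and basophil genes 9 were higher and 1 lower (median 0.68), the latter not without cpdm array 1 or 3 or wild type array 1 or 2. The higher genes included histidine decarboxylase (Hdc; 1.23 ± 0.18, adjusted p = 3.45e-05), carboxypeptidase Cpa3 (1.15 ± 0.29, adjusted p = 0.00776), Mcpt4 (1.04 ± 0.26, adjusted p = 0.00849) and the basophil protease Mcpt8 (0.74 ± 0.17, adjusted p = 0.00315). Without wild type arrays 3 and 4 the adjusted p was 0.093 for Cpa3 and 0.1 for Mcpt4, and the higher genes numbered 5. Without 1 and 2 it was 0.0511 for Mcpt8. Kit, which mast cells and melanocytes both need, was not called (0.11 ± 0.23, adjusted p = 0.827). Of 18 neutrophil genes 7 were higher and none lower (median 0.36). Csf3r rose by 1.29 ± 0.20, adjusted p = 4.97e-05, whereas Ly6g (-0.09 ± 0.13, adjusted p = 0.736) and Elane (-0.04 ± 0.12, adjusted p = 0.872) were not called.

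Among 24 macrophage genes 4 were higher (16.7%, against 8.37% of all genes) and none lower, with a median of 0.24. That median was 0.02 without wild type array 1 and 0.10 without array 2, and it turned to -0.17 without both and to 0.80 without 3 and 4. The C-type lectins Clec4n (2.83 ± 0.34, adjusted p = 1.86e-06), Clec7a (1.46 ± 0.24, adjusted p = 0.000137) and Clec4e (1.41 ± 0.31, adjusted p = 0.00269) rose. Signals of the pan-macrophage marker Cd68 were 9.26, 9.46 and 9.39 in cpdm and 7.98, 8.54, 9.78 and 9.96 in wild type skin (0.30 ± 0.47, adjusted p = 0.754), so wild type arrays 1 and 2 lay below and 3 and 4 above every cpdm array. Of 22 dendritic cell genes 8 were higher and none lower (median 0.28). The integrin chain Itgax (CD11c) rose by 2.01 ± 0.24, adjusted p = 1.66e-06, Irf8 by 0.77 ± 0.16, adjusted p = 0.0015 and the migration marker Fscn1 by 0.67 ± 0.15, adjusted p = 0.00362. The Langerhans cell lectin Cd207 was not called (0.48 ± 0.20, adjusted p = 0.112), except without wild type array 2 (0.0366). Of 27 T and innate lymphoid cell genes 7 were higher and none lower (median 0.25). Il7r (1.38 ± 0.21, adjusted p = 5.03e-05), Cd69 (1.18 ± 0.17, adjusted p = 1.92e-05), Cd4 (0.82 ± 0.16, adjusted p = 0.000996) and Icos (0.90 ± 0.18, adjusted p = 0.00103) rose, and the T cell receptor chain Cd3e (0.02 ± 0.12, adjusted p = 0.953), Cd8a (0.20 ± 0.18, adjusted p = 0.542) and Foxp3 (0.11 ± 0.09, adjusted p = 0.487) were not called. Of 16 B and plasma cell genes 5 were higher, with 2 without cpdm array 3 or without wild type arrays 1 and 2 and 3 without wild type array 2. Cd79b (0.85 ± 0.17, adjusted p = 0.0013) rose and Ms4a1 (0.56 ± 0.23, adjusted p = 0.123), which encodes CD20, was not called.

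Among matrix genes those of collagen I fell and several matrix proteases rose. Of 31 fibroblast and matrix genes 2 were higher (6.45%) and 8 lower (25.8%), against 8.37% and 6.08% of all genes, with a median of -0.09. The lower genes numbered 5 without cpdm array 3, wild type array 2 or wild type array 4, and 4 without wild type arrays 1 and 2. Col1a1 had signals of 11.91, 11.94 and 11.84 in cpdm and 12.81, 13.16, 12.66 and 12.98 in wild type skin (-1.01 ± 0.17, adjusted p = 0.000221), and Col1a2 differed by -0.998 ± 0.21, adjusted p = 0.00162. Col3a1 was called lower (-0.59 ± 0.20, adjusted p = 0.0434), but not without cpdm array 1, 2 or 3 (0.0975, 0.0904 and 0.142) or wild type array 2 or 4 (0.111 and 0.104). Postn, a matrix protein of wounds, rose by 0.97 ± 0.18, adjusted p = 0.000432. Of 28 proteases and inhibitors 6 were higher (21.4%) and 4 lower (14.3%), against 8.37% and 6.08% of all genes. Without wild type arrays 3 and 4 there were 10 higher. Mmp12, the macrophage elastase, had signals of 9.73, 10.05 and 9.97 in cpdm and 6.08, 6.24, 5.69 and 6.45 in wild type skin and rose by 3.80 ± 0.28, adjusted p = 4.34e-10, and the stromal collagenase Mmp13 rose by 1.93 ± 0.23, adjusted p = 1.92e-06. The inhibitors did not move together, as Timp1 rose by 2.42 ± 0.29, adjusted p = 1.54e-06 while Timp3 (-1.01 ± 0.15, adjusted p = 2.44e-05) and Timp2 (-0.62 ± 0.14, adjusted p = 0.00433) fell.

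Genes of glands and fat changed in both directions. Of 20 sebaceous gland genes 3 were higher (15%) and 3 lower (15%), against 8.37% and 6.08% of all genes, with a median of 0.10. There were 7 higher without wild type arrays 1 and 2 (median 0.36), and the median was -0.10 without 3 and 4. The desaturase Scd3 had signals of 7.69, 8.47 and 7.64 in cpdm and 10.13, 10.60, 9.13 and 9.27 in wild type skin (-1.85 ± 0.35, adjusted p = 0.000544), whereas Scd1 (0.33 ± 0.23, adjusted p = 0.407) and Awat2 (-0.27 ± 0.36, adjusted p = 0.711) were not called, and the elongase Elovl3 rose by 1.27 ± 0.21, adjusted p = 0.000168. Of 18 adipocyte genes 4 were lower (22.2%) and 1 higher (5.56%), against 6.08% and 8.37% of all genes, with a median of -0.36. None was higher without cpdm array 2 or 3 or wild type array 3 or 4 and 2 were without wild type array 2, with 2 lower without cpdm array 1 or 2 and 1 without cpdm array 3 or wild type array 1 or 2. Without wild type arrays 1 and 2 there was 1 lower and 3 higher, and without 3 and 4 there were 8 lower and none higher. Leptin (Lep) signals were 4.03, 5.21 and 5.50 in cpdm and 7.43, 7.80, 6.42 and 6.41 in wild type skin (-2.10 ± 0.33, adjusted p = 6.69e-05), below wild type in every cpdm array, and adiponectin (Adipoq) was not called (-0.61 ± 0.34, adjusted p = 0.265). Of 25 skeletal muscle genes 2 were lower (8%, against 6.08% of all genes), with a median of -0.28. The count was 0 without cpdm array 1, 1 without cpdm array 3 or wild type array 1 or 2, and 6 without wild type array 3. It was 0 without wild type arrays 1 and 2 and 11 without 3 and 4.

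Some enzymes of lipid mediators changed. Of 24 prostaglandin and leukotriene genes 8 were higher and 1 lower (median 0.20), with 2 lower without wild type array 3. Alox15, the lipoxygenase of eosinophils and macrophages in mice, rose by 3.17 ± 0.24, adjusted p = 6.11e-10, the terminal prostaglandin E synthase Ptges by 1.86 ± 0.21, adjusted p = 6.93e-07 and the phospholipase Pla2g4e by 1.88 ± 0.14, adjusted p = 5.28e-10. Ptgs2, the inducible cyclooxygenase, did not pass the test (0.64 ± 0.28, adjusted p = 0.14), nor did Alox5 (-0.26 ± 0.25, adjusted p = 0.576), while Alox12 fell (-0.90 ± 0.17, adjusted p = 0.000749). In the complement and coagulation list 4 of 18 genes were higher (22.2%) and 1 lower (5.56%), against 8.37% and 6.08% of all genes. The higher ones included the clotting factors F10 (1.49 ± 0.19, adjusted p = 5.69e-06), F7 (1.27 ± 0.17, adjusted p = 1.07e-05) and F5 (1.73 ± 0.15, adjusted p = 1.26e-08), while tissue factor (F3) was not called (-0.12 ± 0.22, adjusted p = 0.801).

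Of 15 circadian clock genes 1 was higher (6.67%) and 3 lower (20%), against 8.37% and 6.08% of all genes, with a median of -0.44. The lower genes numbered 1 without cpdm array 2 or 3 or wild type array 1 or 2, none without wild type arrays 1 and 2 and 8 without 3 and 4. The higher genes numbered 2 without cpdm array 1 or wild type array 3 or 4. Bhlhe40, a repressor tied to the clock and to hypoxia, rose by 1.84 ± 0.20, adjusted p = 3.41e-07, and its relative Bhlhe41 was lower (-1.02 ± 0.22, adjusted p = 0.00211), with an adjusted p of 0.0563 without wild type arrays 1 and 2. The clock repressor Nr1d1 (-0.97 ± 0.32, adjusted p = 0.0434) and the clock output factor Hlf (-0.69 ± 0.21, adjusted p = 0.0301) were also called lower. Neither was called without cpdm array 2 (0.122 and 0.135) or 3 (0.131 and 0.207) or wild type array 1 (0.128 and 0.0884) or 2 (0.142 and 0.113), nor Nr1d1 without cpdm array 1 (0.0767). Of 13 reference genes, chosen because they often serve as internal standards, 4 were higher (30.8%, against 8.37% of all genes) and none lower, with a median of 0.19. Their mean level was 10.43, 10.46 and 10.46 in cpdm and 10.20, 10.26, 10.11 and 10.26 in wild type skin, so every cpdm array lay above every wild type array. The higher genes were the glycolytic Pgk1 (0.996 ± 0.12, adjusted p = 2.04e-06), the transferrin receptor Tfrc (0.78 ± 0.15, adjusted p = 0.000959), Ywhaz (0.26 ± 0.07, adjusted p = 0.00826) and Ppia (0.19 ± 0.06, adjusted p = 0.0444), and 2 were higher without cpdm array 3 or without wild type arrays 1 and 2. Ppia was not called without cpdm array 2 or 3 or any 1 of the wild type arrays (0.0713 to 0.19), nor Ywhaz without cpdm array 3 (0.0808). In the limma fit over all probe sets none of those of Ppia was called (adjusted p = 0.0649 on the one used), nor was the dimmer one of Ywhaz (0.255). Actb (-0.01 ± 0.08, adjusted p = 0.943), Eef2 (-0.00 ± 0.06, adjusted p = 0.991) and Rplp0 (0.06 ± 0.05, adjusted p = 0.533) were not called.

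The difference between genotypes at 6 weeks was set against that at the neighbouring ages, which rest on 3 cpdm and 3 wild type arrays each. Of the 2881 genes called at 6 weeks 718 (24.9%) were also called at 4 weeks in the same direction, which is 52.1% of the 1378 genes called at 4 weeks. A difference that itself differed between 6 and 4 weeks was called for 53 genes (0.266%), 50 of them toward higher and 3 toward lower in cpdm skin at 6 weeks. The largest was that of Chil4, which differed by 0.25 at 4, 5.99 at 6 and 6.74 at 8 weeks (6 minus 4 weeks 5.74 ± 0.60, adjusted p = 1.51e-05). Several others are products of late epidermal differentiation. Rptn differed by 0.43, 2.81 and 3.81 at the 3 ages (2.38 ± 0.26, adjusted p = 1.51e-05), Casp14 by 0.59, 2.07 and 2.47 (1.48 ± 0.18, adjusted p = 5.33e-05), and Klk8 by 0.40, 2.12 and 2.12 (1.72 ± 0.20, adjusted p = 5.11e-05). Il1f8 went from 1.69 to 3.46 (1.77 ± 0.26, adjusted p = 0.000902), Klk13 from 1.38 to 3.44 (2.06 ± 0.31, adjusted p = 0.00121) and the retinol binder Rbp2 from 1.66 to 3.37 (1.71 ± 0.24, adjusted p = 0.000512). These 7 genes stayed below 0.05 with any single array of 6 weeks left out. By list, 6 of 24 kallikreins and inhibitors and 5 of 41 cornified genes were among the 53, against 0.266% of all genes. None of the NF-kB, chemokine or hair fibre genes was, but at that share lists of their size would seldom hold one. Their lack of a call does not show an unchanged difference. The hair fibre median was -0.14 at 4 and -2.80 at 6 weeks, and for Krt25 the SE of 6 minus 4 weeks was 1.575. The count of 53 was 21 without cpdm array 3, 32 without wild type array 3, 152 without wild type array 2 and 413 without wild type arrays 1 and 2.

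Between 6 and 8 weeks the difference was called to differ for 15 genes (0.0752%), 5 toward higher and 10 toward lower at 6 weeks. An immunoglobulin kappa variable gene segment differed by 0.19 at 6 and 3.06 at 8 weeks (-2.86 ± 0.26, adjusted p = 1.07e-06), and it kept its call with any single array of 6 weeks left out. Pyy went the other way, with 3.66 at 6 and 1.23 at 8 weeks (2.43 ± 0.44, adjusted p = 0.0276). Sprr2e differed by 1.96 at 6 and 3.41 at 8 weeks (-1.45 ± 0.28, adjusted p = 0.0326), and the fibril-associated collagen Col12a1 by 0.49 and 1.91 (-1.42 ± 0.26, adjusted p = 0.0276). The call of each of the 14 genes other than the immunoglobulin segment was lost when some of the single arrays were left out, 3 to 6 of the 7. The count was 1 without cpdm array 2 or wild type array 3, 2 without wild type array 1, 3 without wild type array 4, 5 without cpdm array 1 and 17 without cpdm array 3.

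**Figure D5:**
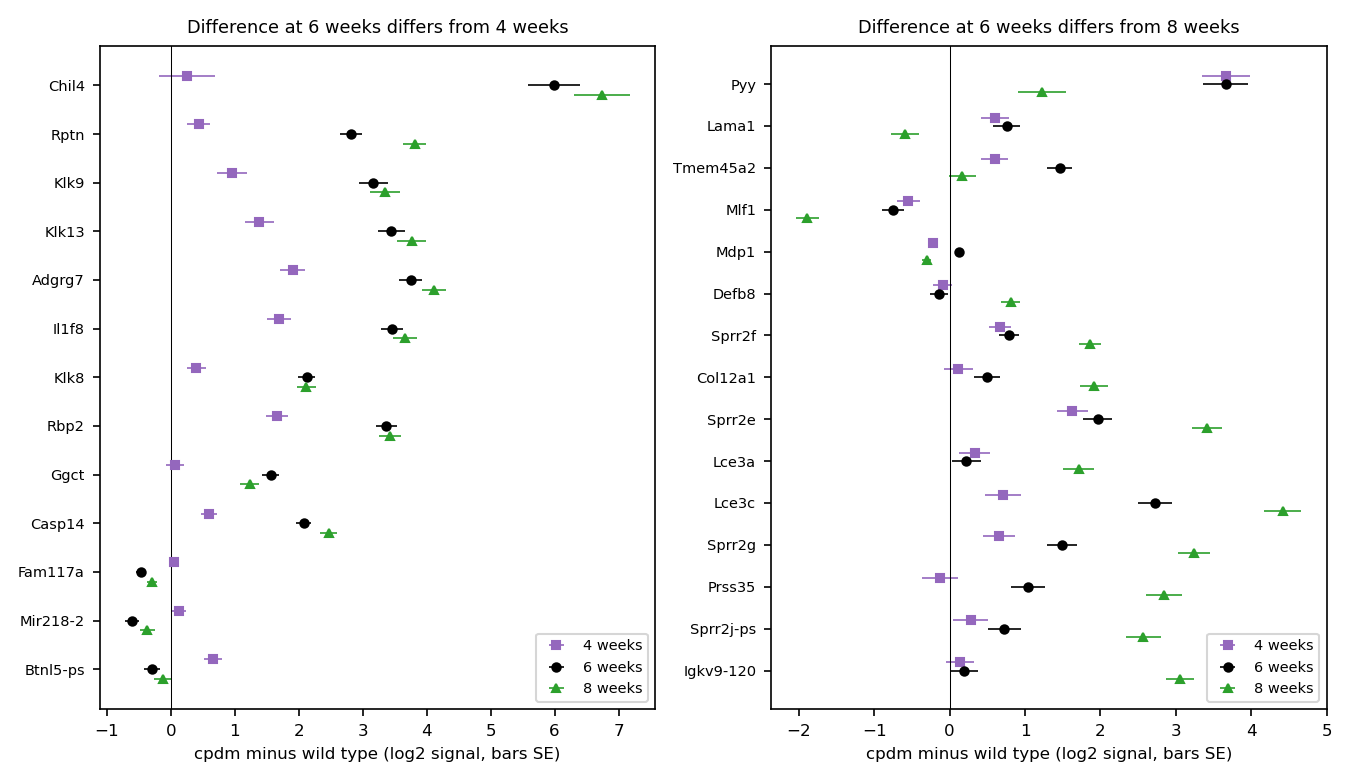
Difference between cpdm and wild type skin (log2, x axis) with its SE, with 1 row per gene (y axis) and separate markers for 4, 6 and 8 weeks. The genes are the named ones whose difference at 6 weeks differs from that at 4 weeks (left) or 8 weeks (right). Chil4 climbs from near 0 at 4 weeks to close to its difference at 8 weeks, and the immunoglobulin kappa segment (Igkv) is near 0 at 6 and high at 8 weeks.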

How the data were processed

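RNA of whole skin was hybridised to Affymetrix arrays, 1 per mouse, after oligo(dT)-primed labelling (labels' protocols). Per the submitters' processing notes the deposited log2 signals per probe set were made with RMA in Affymetrix Expression Console 1.2. RMA subtracts background, forces all arrays to 1 distribution and thereby hides any change in total RNA. The sources used here give no genome build. The number of arrays limits the precision.

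Of 35556 probe sets 21789 had a single gene name in GEO's platform annotation, 1621 several and 12146 none. The single-name probe sets gave 19938 genes, 999 of them with several probe sets. limma 3.58.1 (R 4.3.3) fitted 10 group means to all 31 arrays (21 residual degrees of freedom), so the spread was estimated over all ages. Contrasts were cpdm minus wild type at 6 weeks, and that difference minus those at 4 and at 8 weeks, with Benjamini-Hochberg adjustment over all genes. The code was tested on simulated data. The members and the 55 gene lists (1050 genes measured) were chosen with earlier results of these data known, so counts in lists are descriptions. Named genes are key members of a list and up to 4 others with the lowest p, the 15 largest rises and falls with arrays that do not overlap, and up to 10 genes each way for the differences between ages. Promoter windows came from RefSeq (GRCm38.p6). Alternatives varied the arrays in the fit, the probe set rule, a filter on dim genes, the prior, array weights, normalization, centring, a replicate block and the threshold.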

Additional observations from a re-analysis of the deposited data

Results flagged for a closer look

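Among 248 genes named here, 8 had a wild type array that lay apart from the other wild type arrays of 6 weeks by the Dixon criterion for 4 values. Chance alone marks about 1 in 20 groups. Wild type array 4 was the high value for Bcl3 (log2 signal 6.57), Defb6 (10.16), Irf8 (6.76) and Itgb7 (6.42), and the low value for Pla2g4e (6.89). Wild type array 1 was the high value for Egln3 (8.16) and Ms4a1 (3.97), and wild type array 2 for Il1f8 (5.09). Of these genes all but Ms4a1 were called higher in cpdm skin, and each remained called with any single array left out.

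The difference between genotypes was tested to differ between 6 and 4 weeks for 53 genes and between 6 and 8 weeks for 15. Beyond the genes described with their values at each age above, the difference at 6 minus that at 4 weeks was 1.85 for Adgrg7, 2.21 for Klk9, 0.97 for Klk5, 1.26 for Ereg and 0.77 for Hif1a. It was 1.19 for Il1f5 and 1.22 for Il1f6 of the interleukin 36 system, 1.39 for Ptges, 1.42 for Sdr9c7 and 0.90 for Sqle, and 1.75 for Gsta4. The genes described above had 5.74 (Chil4), 2.38 (Rptn), 2.06 (Klk13), 1.77 (Il1f8), 1.72 (Klk8), 1.71 (Rbp2) and 1.48 (Casp14). For 6 minus 8 weeks the values were -2.86 for the immunoglobulin kappa segment, 2.43 for Pyy, -1.45 for Sprr2e and -1.42 for Col12a1.

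Of 13767 probe sets that carry several gene names or none, 442 were called at 6 weeks when tested alongside the rest. Of these 255 were higher and 187 lower, and 82 changed at least 2-fold. Among the genes of the comparison 2881 of 19938 (14.4%) were called.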

How the results depend on the processing

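The 2881 called genes numbered 1779 in a fit to the 7 arrays of 6 weeks, 1480 at an adjusted p below 0.01, 528 with a 2-fold minimum and 1457 to 2738 with 1 array left out. The higher genes numbered 989 and 304 under those thresholds and 973 to 1628 with 1 array left out. The lower genes numbered 650 with only the arrays of 6 weeks, 491 and 224 under the thresholds and 484 to 1110 with 1 array left out. With array weights 4039 genes were called. Centring each array on its median moved the median difference by 0.029 and gave 1965 higher and 1016 lower genes. The 53 genes that differed from 4 weeks became 650 with array weights, 20 and 31 under the thresholds, and 21 to 152 with 1 array left out. Without wild type arrays 1 and 2 they became 413 and without 3 and 4 they became 32. The 15 genes that differed from 8 weeks became 1283 with array weights, 1 at the stricter threshold, 100 and 2 without the same pairs, and 1 to 17 with 1 array left out. With the dimmest 40% of genes left out limma called 0 of them (1142 genes at an unadjusted p below 0.05). No named gene that was called changed direction under any alternative. A replicate block within the arrays of 6 weeks gave 1023 called genes, 682 higher and 341 lower, and 25 lower hair fibre genes, as many as the same arrays gave without the block. Same-numbered arrays deviated together with r of 0.099, 0.208 and 0.006 over genes, so the numbers were not taken to pair mice. Of 178 named genes called, 141 were called under the replicate block and 166 with only the arrays of 6 weeks. The causes were not tested. In dim genes the signal over background limits how small a change 3 against 4 arrays can show.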

Other observations

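Genes outside the comparisons above add a few details of the skin at 6 weeks. Glutathione transferase Gsta4 was higher by 1.90 ± 0.25, adjusted p = 8.65e-06, with signals of 8.45, 8.07 and 8.86 in cpdm and 6.51, 6.87, 6.29 and 6.58 in wild type skin, and extracellular superoxide dismutase Sod3 by 0.83 ± 0.18, adjusted p = 0.00237, with signals of 7.55, 7.46 and 7.40 in cpdm and 6.72, 6.66, 6.45 and 6.74 in wild type skin. Of 22 genes of glutathione and redox metabolism 3 were higher (13.6%) and 2 lower (9.09%), against 8.37% and 6.08% of all genes. The median was 0.16, and 1 was lower without cpdm array 3. Gpx3, the secreted glutathione peroxidase, was lower (-1.37 ± 0.32, adjusted p = 0.00405), but not without wild type arrays 3 and 4 (0.086), when no gene of the list was called lower. In the list of nerve, glia and itch genes 2 of 17 were higher (11.8%, against 8.37% of all genes), Pyy and the axon repellent Sema3a (1.07 ± 0.21, adjusted p = 0.00107). Sema3a signals were 7.30, 7.51 and 7.39 in cpdm and 6.29, 6.72, 6.11 and 6.20 in wild type skin, without overlap.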
